A study of Mus musculus with 6 samples.

Results

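Interferon-induced effector genes were examined in ectopic endometriotic lesions of mice, and 71 of the 56884 genes in the count table belonged to them. The genes were taken by name: symbols that begin with Gbp, Ifit, Ifitm, Oas, Irgm, Iigp, Ifi, Isg, Mx or Rsad and a digit, or with Oasl and a digit, together with Igtp, Zbp1, Usp18 and Bst2. They were divided by family. There were 17 GTPases known chiefly as targets of interferon gamma (12 guanylate-binding proteins and 5 immunity-related GTPases). Another 32 genes are known chiefly as targets of type I interferon (6 Ifit genes, 12 Oas and Oasl genes and 14 others). The rest were 12 genes of the Ifi200 family, 7 of the Ifitm family and 3 outside these families (Ifi30, Rsad1 and Isg20l2). Of all 71 genes, 63 had enough reads to be tested and 8 did not.

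The lesions came from endometrium of 8-week-old female donors placed in syngeneic wild-type C57BL/6J recipients of the same age that carried a slow-release estradiol pellet. Control (WT) donors were Dnmt3a f/f, with floxed alleles and no Cre, and knockout (KO) donors were Dnmt3a f/f:PR-Cre/+, in which Cre is made from the progesterone receptor locus. Both kinds of donor were given estradiol before the endometrium was taken. The labels give the lesions as 4 weeks after onset, whereas the methods of the study give an earlier collection, and 3 WT and 3 KO lesions were each sequenced as 1 library. Dnmt3a, a DNA methyltransferase, is removed in this model in cells of the graft that express the progesterone receptor, while leukocytes, vessels and other cells that enter from the recipient keep it. Each library is a whole piece of tissue, so a lower level of a gene can mean fewer cells that express it or less RNA per cell, and these cannot be told apart.

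Interferons are secreted proteins that cells use to warn one another of infection. Type I interferons act through the receptor made of Ifnar1 and Ifnar2 and through Stat2 and Irf9, which act at the interferon-stimulated response element (ISRE), whereas interferon gamma, made mainly by T and NK cells, acts through Ifngr1 and Ifngr2 and at the gamma-activated site (GAS). The products of the genes described here carry out the response: the GTPases attack vacuoles that hold pathogens, and the Ifit, Oas, Mx and Rsad2 proteins act on viral RNA and viral replication. The assignment to gamma or type I interferon is a convention, because many of these genes respond to both.

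The promoters of some members show these elements. Those of Ifi47, Ifi44, Oasl1 and Oasl2 held neither, and Gbp3 and Ifi203 each had a further promoter with neither. The stretches given here are examples chosen from promoters with a match. They are from RefSeq on the GRCm38.p6 build, each 5′ to 3′ on the strand of its gene, with capitals marking every match to the ISRE letters GAAANNGAAA on either strand (TTTCNNTTTC on the other strand) or to the GAS letters TTCNNNGAA, which read the same on both strands. Matches to the 2 motifs were searched separately and may overlap. First come the GTPases.
Igtp, chr11:58199496-58199546, plus strand: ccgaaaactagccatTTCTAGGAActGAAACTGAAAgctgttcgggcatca
Irgm2, chr11:58214887-58214937, plus strand: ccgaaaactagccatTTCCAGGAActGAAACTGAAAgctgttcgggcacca
Gbp2, chr3:142620589-142620628, plus strand: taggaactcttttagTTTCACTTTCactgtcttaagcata
Gbp3, chr3:142559984-142560029, plus strand: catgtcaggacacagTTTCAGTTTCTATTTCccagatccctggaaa
Gbp7, chr3:142530215-142530307, plus strand: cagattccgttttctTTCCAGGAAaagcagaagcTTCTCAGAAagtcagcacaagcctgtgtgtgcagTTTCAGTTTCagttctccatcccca

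The stretches of Igtp and Irgm2, neighbours on chromosome 11, were identical at 49 of 51 bases, with T19C and T49C counted from 1 at the 5′ end of the stretch (the base of Igtp is given first). In both, a GAS match lies just upstream of an ISRE match. In the Igtp promoter they begin at -45 and -34, counted from the transcription start, and in the Irgm2 promoter at -75 and -64. Next come the type I-induced members and the Ifi200 family.
Ifit1, chr19:34640770-34640828, plus strand: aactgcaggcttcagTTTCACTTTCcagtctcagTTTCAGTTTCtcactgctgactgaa
Ifit3, chr19:34583358-34583431, plus strand: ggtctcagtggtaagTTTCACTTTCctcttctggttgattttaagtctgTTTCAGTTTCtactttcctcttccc
Isg15, chr4:156200860-156200911, minus strand: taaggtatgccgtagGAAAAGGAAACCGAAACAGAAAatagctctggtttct
Oas3, chr5:120777710-120777749, minus strand: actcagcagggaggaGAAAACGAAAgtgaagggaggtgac
Rsad2, chr12:26456548-26456587, minus strand: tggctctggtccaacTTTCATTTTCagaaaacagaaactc
Ifi203, chr1:173942503-173942542, minus strand: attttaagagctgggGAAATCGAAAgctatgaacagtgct
Ifi213, chr1:173599321-173599360, minus strand: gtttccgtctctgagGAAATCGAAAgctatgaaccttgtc

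The 74 bases shown for Ifit3 recur without a change upstream of its neighbour Ifit3b, and the 40 bases of Ifi213 recur upstream of Ifi208. Ifit1 and Ifit1bl2 are transcribed away from each other and share the 59 bases shown for Ifit1, read on opposite strands. Promoters of 250 bases before to 50 bases after the start were available for 50 of the 71 members, 59 promoters in all. An ISRE match was found in 31 of these 59 (52.5%), against 3.44% of 32851 promoters of the genome, and a GAS match in 12 (20.3%), against 8.30%. Among the GTPases, 8 of 10 promoters held an ISRE match and 4 of 10 a GAS match. Among the type I-induced members these numbers were 13 and 5 of 26, and in the Ifi200 family 8 and 1 of 11. The letters describe these windows only.

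Some facts of the whole series bear on the values. The libraries held 45370342 to 57239184 counts, and values are given as CPM, the counts of a gene relative to the total of its library, after scaling by TMM, always in the order of replicates 1, 2 and 3. The floxed gene itself, Dnmt3a, stood at 52.7, 43.9 and 51.7 CPM in the WT lesions and at 30.3, 33.5 and 36.2 CPM in the KO lesions, so every KO library lay below every WT library. Of 10 epithelial and 8 stromal markers of the endometrium, all were detected in every library except Foxa2, a marker of glands, which ranged from 0 to 2.62 CPM. WT replicate 2 stood apart: its summed neutrophil markers reached 9877 CPM (9 genes, without lactoferrin, which the uterine epithelium also secretes) against 37.3 to 480 CPM in the other libraries, and its summed macrophage markers 6320 CPM against 1492 to 3256 CPM. WT replicates 1 and 3 instead carried skeletal muscle RNA, with 33536 and 37476 CPM over 10 muscle markers against 4.75 to 14.7 CPM elsewhere. Values without WT replicate 2 are therefore given beside many of the results. Such values compare WT replicates 1 and 3, which hold muscle RNA, with KO lesions that hold very little. Muscle content and genotype cannot be told apart in them.

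A gene was called lower or higher when its unadjusted p from the edgeR quasi-likelihood test was under 0.05 and its log2 fold change, KO over WT, lay below -1 or above 1, which is the threshold the study used. By this rule 34 of the 63 tested members were lower in KO lesions and 0 were higher (0 by DESeq2 as well), whereas 5.85% of all 18177 genes tested were lower and 3.1% higher. Of the members, 56 had a negative log2 fold change, against 48.6% of all genes, and their median was -1.23, against 0.01 over all genes. For 38 members all WT lesions exceeded all KO lesions (8.74% of all genes), and no member showed the opposite (10.7% of all genes). After adjustment over all genes, no member had an edgeR adjusted p under 0.05, and the values ran from 0.321 to 0.971. A call of that kind was made for 0.0055% of all genes tested. At an unadjusted p under 0.05 edgeR gave 40 members, all of them lower in KO (8.16% of all genes), and DESeq2 gave 28 of 65 members an adjusted p under 0.05, again all lower (3.8% of all genes for which DESeq2 gave an adjusted p).

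WT replicate 2 carried part of this difference. It held the highest value of the 6 libraries for 52 of the 63 members, 82.5%, whereas it did so for 24.2% of all genes. Without it, 16 members were lower (5.86% of all genes in that fit) and 1, Ifitm1, was higher (2.1%), the median was -0.82, and 53 members were negative. WT replicates 1 and 3 still lay above all 3 KO lesions for 39 members (17.3% of all genes). No member had an edgeR adjusted p under 0.05 in that fit, the lowest being 0.0522 for Gbp3, whereas 2.1% of all genes did. Of those 398 genes, 396 were lower in KO. All 10 muscle markers were called lower in that fit, so its shares of all genes include muscle genes. With all libraries and again in each of the 6 fits that left out 1 library, 14 members were lower (1.89% of all genes): Igtp, Iigp1, Gbp2, Gbp2b, Gbp3, Gbp5 and Gbp9 among the GTPases, Zbp1, Ifit3, Mx1, Oas1b and Oas3 among the type I-induced members, and Ifi203 and Ifi213 of the Ifi200 family.

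**Figure D1:**
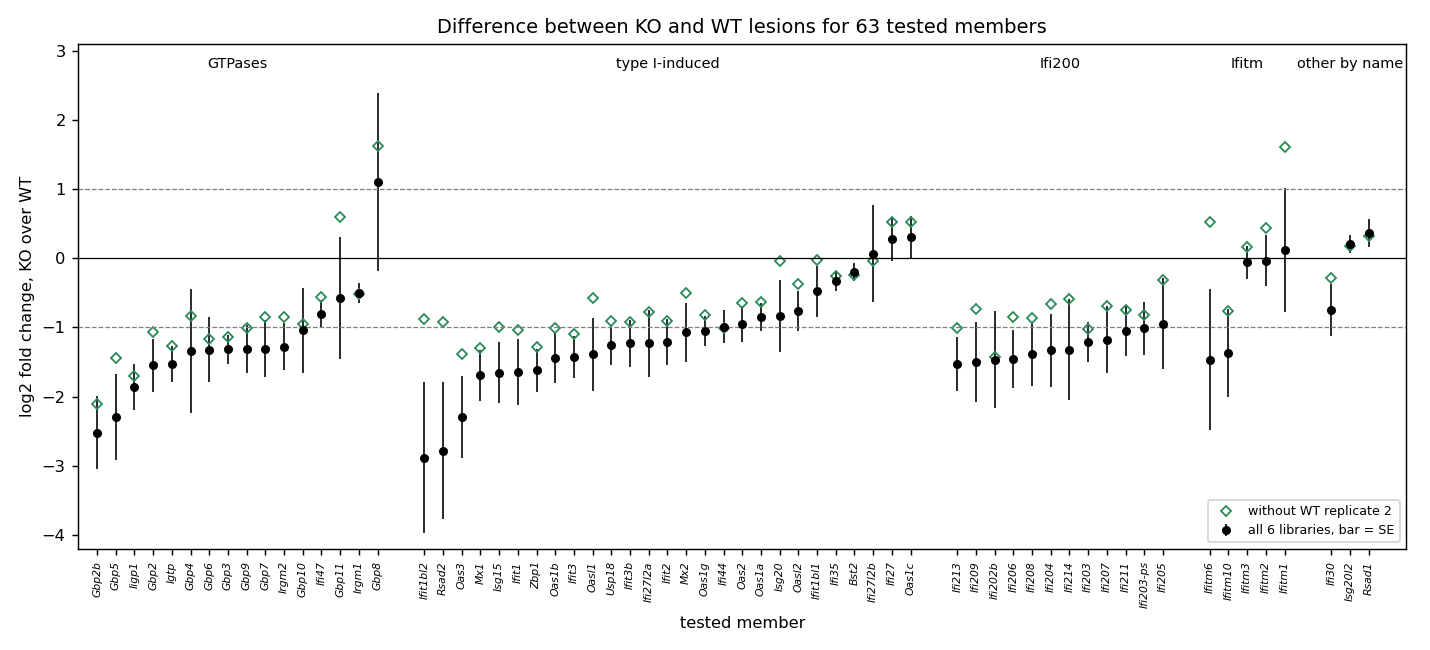
Log2 fold change, KO over WT, of the 63 tested members grouped by class (vertical axis), from the edgeR fit with all 6 libraries (filled circles, bars show the SE) and from the fit without WT replicate 2 (open diamonds). Dashed lines mark -1 and 1. Of the filled circles 56 lie below 0, and 53 of the diamonds do, while the filled circles of the 5 Ifitm genes run from -1.47 to 0.12.

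The immunity-related GTPases assemble on membranes of vacuoles, and in the mouse they are induced chiefly by interferon gamma. All 5 had an unadjusted p under 0.05 and all 5 had every KO lesion below every WT lesion. Their median log2 fold change was -1.28. The change was not of one size, because 3 of them passed the fold threshold and Irgm1 and Ifi47 did not.

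Igtp (ENSMUSG00000078853.9), a regulator that guards the membranes of the host cell against its own effector GTPases, stood at 47.6, 68.0 and 38.3 CPM in the WT lesions and 15.2, 17.0 and 21.2 CPM in the KO lesions. The lowest WT lesion was at 38.3 CPM and the highest KO lesion at 21.2 CPM, and the log2 fold change was -1.52 (SE 0.26), or -1.27 without WT replicate 2. Iigp1 (ENSMUSG00000054072.13), an effector that coats the vacuole of Toxoplasma, was measured at 121, 134 and 76.5 CPM in the WT lesions and 27.7, 21.3 and 42.2 CPM in the KO lesions. It had the most negative log2 fold change of the immunity-related GTPases, -1.86 (SE 0.33), which is 3.64-fold, and WT replicate 2 hardly mattered to it (-1.70 without that library).

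Irgm2, whose promoter stretch is nearly that of Igtp, had 68.9, 126 and 55.6 CPM in the WT lesions and 29.6, 31.6 and 41.9 CPM in the KO lesions. The groups did not overlap, with a log2 fold change of -1.28 (SE 0.34), and without WT replicate 2 it came to -0.85, short of the fold threshold. For Ifi47 the levels were 61.9, 99.7 and 68.8 CPM in the WT lesions and 44.7, 44.4 and 43.4 CPM in the KO lesions. The KO lesions were nearly equal and below all WT lesions, and the log2 fold change was -0.80 (SE 0.20), or -0.56 without WT replicate 2. Irgm1, the regulator best known from resistance to mycobacteria, was at 153, 143 and 145 CPM in the WT lesions and 110.3, 113 and 87.8 CPM in the KO lesions. Here WT replicate 2 was the lowest of the WT lesions, the groups still did not overlap, and the log2 fold change of -0.50 (SE 0.14) was the smallest of the 5.

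On a scale that allows genes to be compared, RPKM (CPM divided by the exon length in kilobases), the WT lesions held Ifi47 at 31.0 ± 8.14 (SD, n = 3), Igtp at 25.4 ± 7.52, Irgm1 at 25.3 ± 0.978, Irgm2 at 22.6 ± 10.1 and Iigp1 at 18.99 ± 5.19. These levels lay close together, with Ifi47 the highest. In the KO lesions Irgm1 at 17.9 ± 2.40 and Ifi47 at 17.8 ± 0.276 stood above Irgm2 at 9.32 ± 1.79, Igtp at 8.81 ± 1.503 and Iigp1 at 5.22 ± 1.84, with Irgm1 and Ifi47 within their spread of each other.

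**Figure D2:**
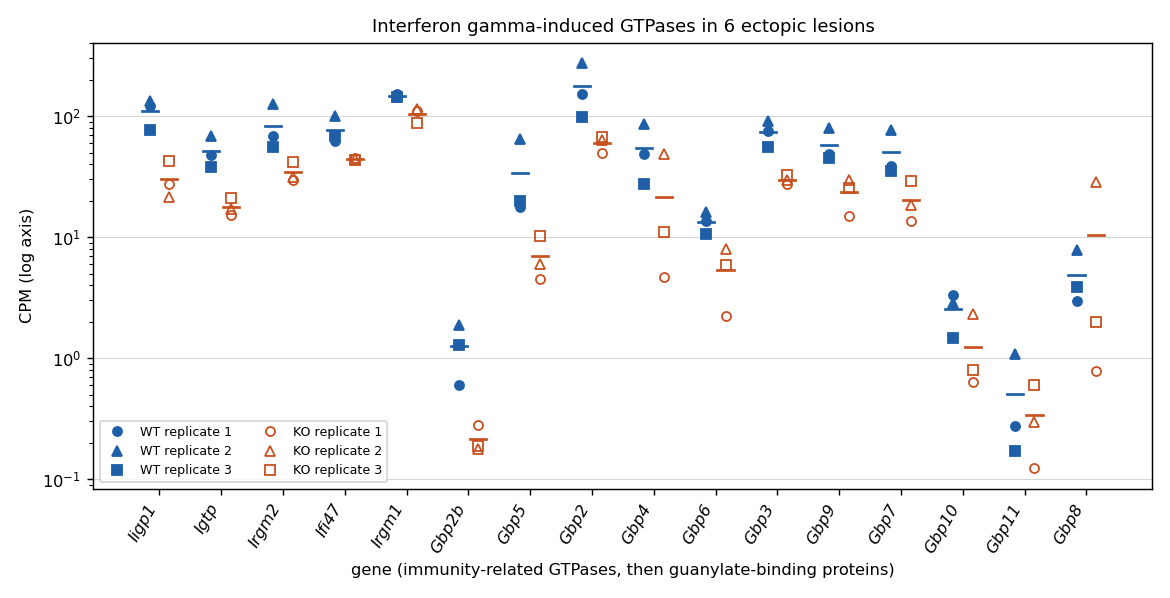
CPM of the 16 tested interferon gamma-induced GTPases in each library on a log axis, WT filled and KO open, with a short line at each group mean. The 5 immunity-related GTPases at the left have no overlap between the groups, as do Gbp2, Gbp2b, Gbp3, Gbp5, Gbp6, Gbp7 and Gbp9, whereas Gbp4, Gbp8 and Gbp10 reach the WT range in KO replicate 2.

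The guanylate-binding proteins are larger GTPases that coat bacteria and vacuoles and help to start inflammasome signalling. Of 12 members, 11 were tested, of which 7 were called lower in KO. The median log2 fold change was -1.32. They lie in 2 clusters. In GENCODE M21 on GRCm38 the cluster on chromosome 3 spans 142493978 to 142669041 and that on chromosome 5 spans 105014150 to 105346472.

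All 5 tested genes of the chromosome 3 cluster were lower, and none overlapped between the groups. Gbp2 (ENSMUSG00000028270.13), which is recruited to Toxoplasma vacuoles and in these data had the highest RPKM of the GTPases (69.9 ± 35.8 in WT, SD, n = 3), stood at 153, 275 and 99.2 CPM in the WT lesions and 49.8, 62.9 and 67.4 CPM in the KO lesions. The log2 fold change was -1.55 (SE 0.39), or -1.07 without WT replicate 2. Gbp3 (ENSMUSG00000028268.15) was at 75.6, 91.8 and 55.6 CPM in the WT lesions and 27.5, 29.4 and 32.6 CPM in the KO lesions. It had the lowest unadjusted p of all members and a small spread, with KO lesions between 27.5 and 32.6 CPM and a log2 fold change of -1.32 (SE 0.21). Gbp5, which promotes assembly of the NLRP3 inflammasome, had 17.8, 64.6 and 19.8 CPM in the WT lesions and 4.53, 5.96 and 10.3 CPM in the KO lesions. WT replicate 2 was 3.44-fold above the mean of the other WT lesions, yet those also lay above every KO lesion, so that the log2 fold change of -2.30 (SE 0.62) became -1.44 without it. Gbp7 was at 38.6, 77.1 and 35.1 CPM in the WT lesions and 13.6, 18.4 and 29.1 CPM in the KO lesions. Its KO replicate 3 came close to WT replicate 3, and the log2 fold change was -1.30 (SE 0.42), or -0.86 without WT replicate 2. Gbp2b, long known as Gbp1, was scarce at 0.598, 1.89 and 1.28 CPM in the WT lesions and 0.281, 0.179 and 0.188 CPM in the KO lesions. Even so the groups did not overlap, and -2.52 (SE 0.53) was the most negative log2 fold change of the GTPases.

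The chromosome 5 cluster was less uniform, with 2 of its 6 tested genes called lower. Gbp9 had 48.9, 80.0 and 45.2 CPM in the WT lesions and 14.8, 29.8 and 25.7 CPM in the KO lesions. All KO lesions were below all WT lesions, at a log2 fold change of -1.31 (SE 0.34), or -1.003 without WT replicate 2. Gbp6 was at 13.5, 16.2 and 10.6 CPM in the WT lesions and 2.23, 7.91 and 5.94 CPM in the KO lesions. The groups did not overlap, and the log2 fold change was -1.32 (SE 0.47). Of all 75-base windows in its transcripts 67.3% also occur in other genes, mostly in the predicted gene Gm43302, so reads can be split between them. Gbp4 had 49.0, 86.3 and 27.3 CPM in the WT lesions and 4.72, 48.5 and 11.002 CPM in the KO lesions. KO replicate 2 lay inside the WT range and the other KO lesions far below it, and the log2 fold change was -1.34 (SE 0.90), with the call missed.

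Gbp8 was singled out after its values were seen, because it ran against the rest at 2.97, 7.83 and 3.84 CPM in the WT lesions and 0.789, 28.7 and 2.00 CPM in the KO lesions. KO replicate 2 exceeded every other library, whereas KO replicates 1 and 3 lay below all WT lesions. The log2 fold change was 1.11 (SE 1.29), and -1.80 without KO replicate 2. Without that library, left out here after its value for Gbp8 was seen, 5 of the 6 genes of the cluster were called lower (3.48% of all genes in that fit), and their median log2 fold change went from -1.18 to -1.76. KO replicate 2 also differed from the other lesions in markers of ovary and oocyte, a list drawn up after the data were seen, which summed to 42.1 CPM there and to 1.28 to 3.38 CPM elsewhere. The part of such cells in the Gbp values was not tested. The remaining tested genes, Gbp10 and Gbp11, reached at most 3.33 CPM in any library and were not called, and the pseudogene Gbp2-ps had 0 counts in all 6 libraries.

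Of 32 type I-induced members, 27 were tested and 16 were called lower (5.85% of all genes). An unadjusted edgeR p under 0.05 was found for 20, all lower in KO (8.16% of all genes). A negative log2 fold change was found for 24 (48.6% of all genes), and the median was -1.21. For 19 of the tested members all WT lesions exceeded all KO lesions (8.74% of all genes). Without WT replicate 2, 7 were called lower (5.86% of all genes in that fit) and the median was -0.83.

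The Ifit proteins bind viral RNA with foreign 5′ ends and block its translation. All 6 Ifit genes, in 1 cluster on chromosome 19 (34550694 to 34650009 on GRCm38), had a negative log2 fold change and 5 were called lower. Ifit1, which recognises RNA without cap methylation, was at 34.7, 101 and 44.7 CPM in the WT lesions and 14.7, 16.2 and 26.8 CPM in the KO lesions. WT replicate 2 was highest and KO replicate 3 came nearest to WT, without overlap, and the log2 fold change was -1.65 (SE 0.47), or -1.04 without WT replicate 2. Ifit3 (ENSMUSG00000074896.4), which stabilises Ifit1 in human cells, had 35.2, 73.9 and 47.1 CPM in the WT lesions and 19.2, 16.2 and 22.5 CPM in the KO lesions. The groups were separate and the log2 fold change of -1.43 (SE 0.30) was -1.09 without WT replicate 2. Its close copy Ifit3b was at 10.6, 22.2 and 14.99 CPM in the WT lesions and 5.79, 5.68 and 8.92 CPM in the KO lesions. That is the same order of libraries at a lower level, with a log2 fold change of -1.23 (SE 0.34), and 41.1% of the 75-base windows of Ifit3 occur in Ifit3b, so the split of reads between the copies is uncertain.

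Ifit2, which binds AU-rich RNA, stood at 27.5, 63.1 and 46.8 CPM in the WT lesions and 18.6, 16.3 and 24.4 CPM in the KO lesions. No KO lesion reached the WT range, and the log2 fold change was -1.21 (SE 0.33), or -0.91 without WT replicate 2. Ifit1bl2, which shares its promoter with Ifit1, was at 0.961, 14.2 and 1.88 CPM in the WT lesions and 0.491, 0.695 and 1.13 CPM in the KO lesions. Most of its difference lay in WT replicate 2, 10.02-fold above the mean of the other WT lesions, and KO replicate 3 was above WT replicate 1. The log2 fold change was -2.88 (SE 1.09) with that library and -0.88, no longer called, without it. The genes on either side of this shared promoter therefore differed in how strongly WT replicate 2 exceeded the other WT lesions, by 2.56-fold for Ifit1.

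Oas proteins sense double-stranded RNA and make oligoadenylates that switch on RNase L. Of 12 Oas and Oasl genes, 8 were tested, 7 had an unadjusted p under 0.05 and the same 7 showed no overlap, but the fold changes were modest, with a median of -0.999 and 4 called lower. Oas3, which prefers long double-stranded RNA, had the most negative fold change of them at 35.2, 119.9 and 31.0 CPM in the WT lesions and 11.2, 9.91 and 16.8 CPM in the KO lesions. WT replicate 2 was 3.62-fold above the other WT lesions, which in turn lay above every KO lesion, and the log2 fold change was -2.29 (SE 0.60), or -1.39 without it. Oas1a had 46.0, 71.9 and 50.5 CPM in the WT lesions and 34.4, 28.2 and 30.8 CPM in the KO lesions. Its groups were separate at a log2 fold change of -0.85 (SE 0.20). Oas1g was at 14.2, 21.0 and 13.9 CPM in the WT lesions and 8.75, 7.63 and 7.36 CPM in the KO lesions. It followed Oas1a, with 36.9% of its 75-base windows shared with that gene, and its log2 fold change was -1.05 (SE 0.22), or -0.83 without WT replicate 2. Oas1b, the flavivirus resistance gene of mice, is annotated as a polymorphic pseudogene. It was low at 2.78, 5.15 and 2.31 CPM in the WT lesions and 1.30, 1.19 and 1.29 CPM in the KO lesions. The KO lesions were nearly equal and all below WT, with a log2 fold change of -1.43 (SE 0.37).

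Oas2 stood at 29.6, 55.4 and 36.0 CPM in the WT lesions and 23.07, 20.0 and 19.5 CPM in the KO lesions. The groups did not overlap and the log2 fold change was -0.95 (SE 0.26). Oasl2 had 131, 233 and 114 CPM in the WT lesions and 91.4, 101 and 89.3 CPM in the KO lesions. Its KO lesions were all below WT, and its log2 fold change was -0.76 (SE 0.29), or -0.38 without WT replicate 2. Oasl1, an inhibitor of Irf7 translation, was at 15.99, 59.1 and 19.9 CPM in the WT lesions and 12.4, 9.87 and 14.0 CPM in the KO lesions. WT replicate 1 was close to KO replicate 3, and the log2 fold change of -1.39 (SE 0.53) shrank to -0.57 without WT replicate 2. Oas1c, tested but not called, stayed at 3.03 to 5.84 CPM, and Oas1d, Oas1e, Oas1f and Oas1h were too scarce to test. Of these last, Oas1d, Oas1e and Oas1h had 28, 55 and 8 counts in KO replicate 2 and at most 4 counts in any other library. KO replicate 2 was also the library with the ovary and oocyte markers named above.

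**Figure D3:**
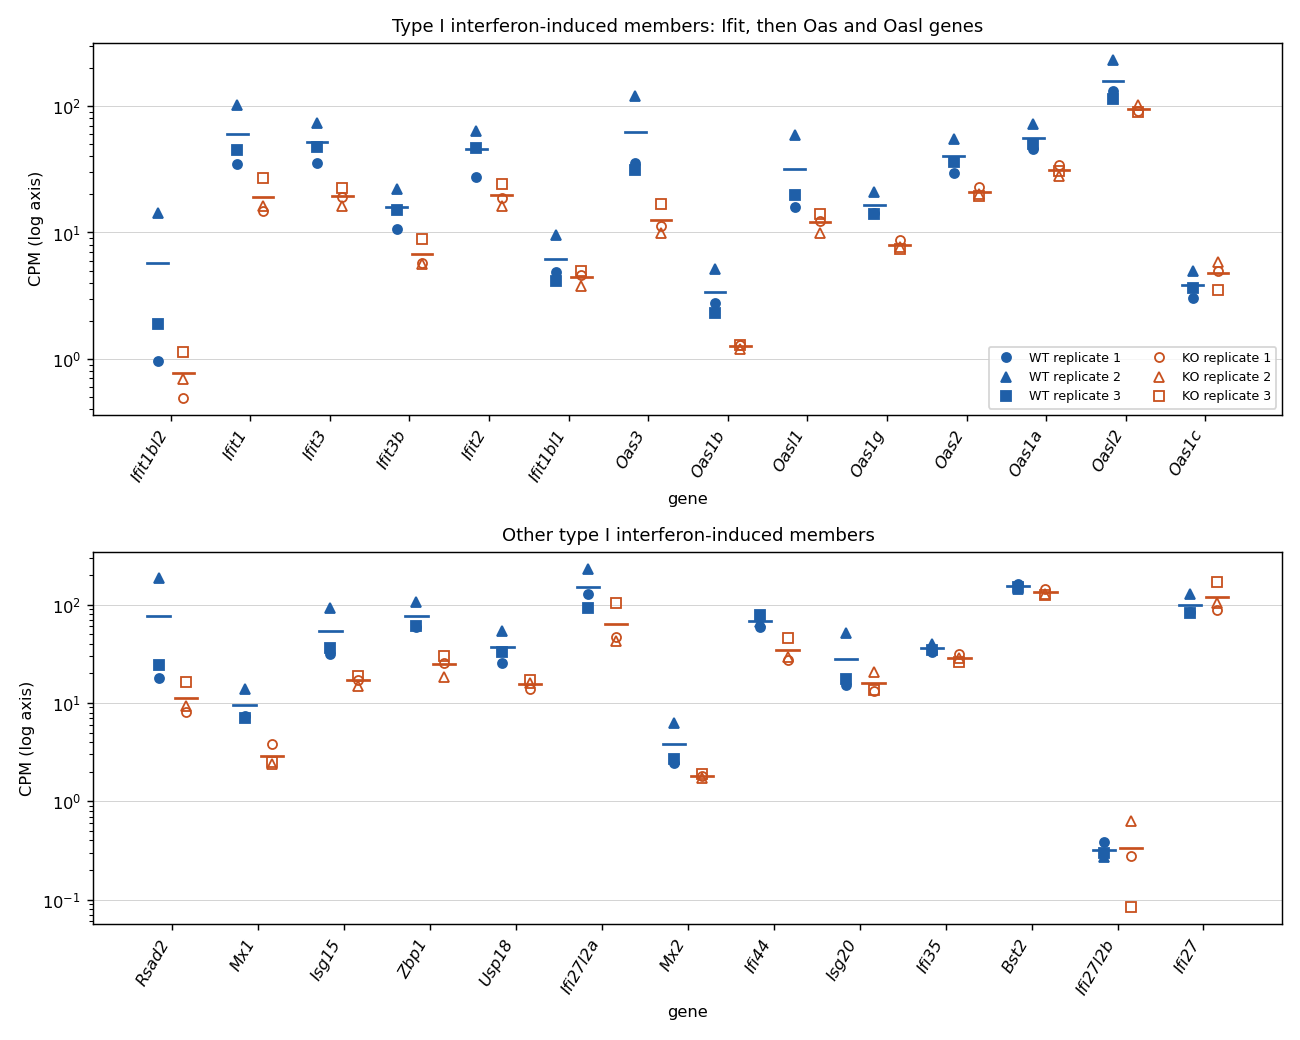
CPM of the 27 tested type I interferon-induced members in each library on a log axis, WT filled and KO open, with a short line at each group mean. The upper panel holds Ifit, Oas and Oasl genes and the lower panel the others. WT replicate 2 (filled triangles) is far above the other WT lesions for Rsad2, Ifit1bl2 and Oas3, whereas the libraries of Bst2 and Ifi35 lie close together.

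Of the 13 other type I-induced members that were tested, 7 were called lower. Zbp1 (ENSMUSG00000027514.15), a sensor of Z-form nucleic acid that can start necroptosis, was at 59.7, 107 and 60.8 CPM in the WT lesions and 25.4, 18.6 and 30.2 CPM in the KO lesions. The groups were well apart and the log2 fold change was -1.62 (SE 0.31), or -1.28 without WT replicate 2. Mx1, a GTPase active against influenza virus, which C57BL/6 mice carry in a defective form, had 7.37, 13.9 and 7.01 CPM in the WT lesions and 3.82, 2.42 and 2.501 CPM in the KO lesions. All KO lesions lay below all WT lesions at a log2 fold change of -1.69 (SE 0.37). Mx2 is annotated as a polymorphic pseudogene. It was low at 2.46, 6.26 and 2.69 CPM in the WT lesions and 1.81, 1.71 and 1.92 CPM in the KO lesions. The groups were close but separate, and its log2 fold change went from -1.07 (SE 0.43) to -0.51 without WT replicate 2.

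Isg15, a ubiquitin-like protein attached to viral and host proteins, was measured at 31.4, 92.6 and 36.2 CPM in the WT lesions and 17.3, 14.8 and 18.8 CPM in the KO lesions. WT replicate 2 was 2.74-fold above the other WT lesions and the KO lesions were close to one another, with a log2 fold change of -1.65 (SE 0.45), or -0.99 without that library. Usp18, which removes Isg15 and damps signalling at Ifnar2, had 25.8, 53.5 and 33.3 CPM in the WT lesions and 13.9, 16.1 and 17.1 CPM in the KO lesions. Its KO lesions were all below WT at a log2 fold change of -1.26 (SE 0.29), or -0.91 without WT replicate 2. Rsad2 (viperin), which makes a chain-terminating nucleotide, was at 17.98, 189 and 24.6 CPM in the WT lesions and 8.17, 9.26 and 16.3 CPM in the KO lesions. WT replicate 2 was 8.86-fold above the mean of the other WT lesions, and the log2 fold change of -2.78 (SE 0.99) came to -0.92 without it. The remaining WT lesions still exceeded every KO lesion, WT replicate 1 by a small margin.

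Ifi27l2a was the member of this class with the highest RPKM (324 ± 155 in WT, SD, n = 3) and stood at 128, 230.3 and 91.9 CPM in the WT lesions and 46.6, 42.3 and 104 CPM in the KO lesions. KO replicate 3 exceeded WT replicate 3, and the log2 fold change of -1.23 (SE 0.49) became -0.78 without WT replicate 2. Ifi44 had 58.9, 65.9 and 78.8 CPM in the WT lesions and 27.6, 29.4 and 45.7 CPM in the KO lesions. It is one of the few members that were not highest in WT replicate 2, and its log2 fold change of -0.99 (SE 0.24) was -1.01 without that library. Isg20, an RNA exonuclease, was at 15.2, 51.9 and 17.4 CPM in the WT lesions and 13.3, 20.6 and 13.7 CPM in the KO lesions. WT replicate 2 stood far above the rest, and the log2 fold change was -0.83 (SE 0.52), or -0.04 without it.

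The other members of the class with at least 10 CPM were not called. Bst2 (tetherin), which holds budding virus at the cell surface, was at 164, 144 and 153 CPM in the WT lesions and 146, 129 and 126 CPM in the KO lesions. The groups overlapped and the log2 fold change was -0.20 (SE 0.12). Ifi35 had 33.4, 40.0 and 35.0 CPM in the WT lesions and 31.3, 28.7 and 25.9 CPM in the KO lesions. Its groups did not overlap, but the log2 fold change was -0.33 (SE 0.14). Ifi27, a small membrane protein of mitochondria, stood at 85.1, 129.9 and 82.8 CPM in the WT lesions and 88.0, 103 and 170.3 CPM in the KO lesions. KO replicate 3 was the highest of all libraries, and the log2 fold change was 0.28 (SE 0.31). The remaining tested members of the class, Ifit1bl1 and Ifi27l2b, were not called, and Ifi44l had 2 and 5 counts in KO replicates 2 and 3 and 0 elsewhere.

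The difference between the 2 main classes was smaller than the spread between lesions. The median log2 fold change was -1.31 for the 16 GTPases and -1.21 for the 27 type I-induced members, a difference of -0.10. Between lesions of 1 genotype, the class medians varied against each other with an SD of 0.29. Without WT replicate 2 the medians were -0.98 and -0.83. Leaving out KO replicate 2 gave a difference of -0.49 and leaving out KO replicate 1 one of 0.05, so it changed sign with the lesions used. By the call, 10 of 16 GTPases and 16 of 27 type I-induced members were lower.

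The order of the lesions was not the same in the 2 classes. With each gene expressed as its log2 difference from its mean over 6 libraries, the median of the GTPases was 0.44, 1.23 and 0.24 in the WT lesions and -1.08, -0.51 and -0.48 in the KO lesions. For the type I-induced members the medians were 0.13, 1.17 and 0.29 in WT and -0.54, -0.69 and -0.41 in KO. KO replicate 1 was lowest for the GTPases and KO replicate 2 for the type I-induced members, and no KO lesion reached a WT lesion in either class. The median over all genes tested lay between -0.02 and 0.01 in every library. These class differences are a description and carry no test.

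**Figure D4:**
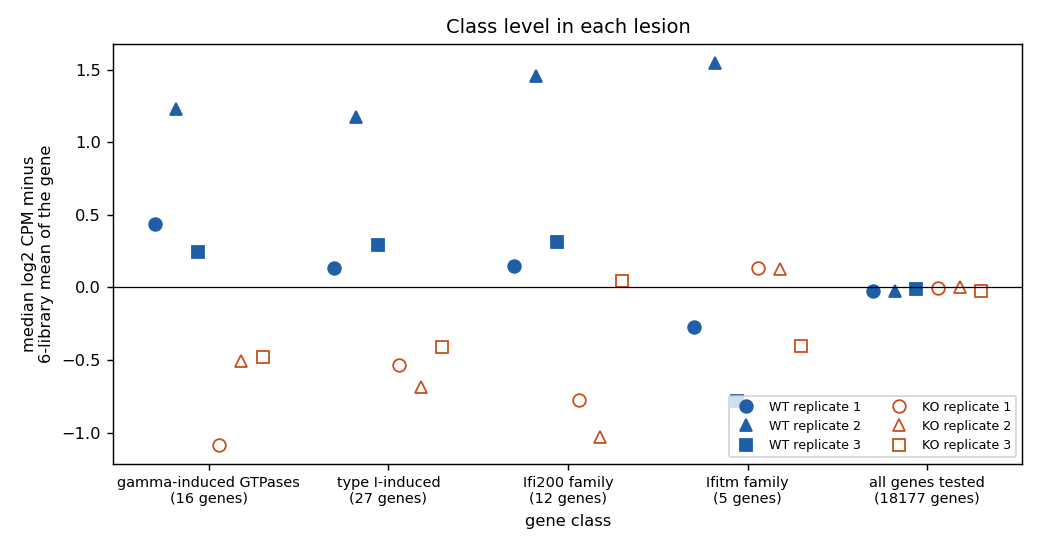
Median, over the tested genes of a class, of log2 CPM minus the mean of that gene over 6 libraries (vertical axis), shown for each library, WT filled and KO open. In the GTPases, the type I-induced members and the Ifi200 family WT replicate 2 lies between 1.17 and 1.46 and the KO lesions at or below 0.04, in the Ifitm family WT replicates 1 and 3 lie below KO replicates 1 and 2, and all genes together lie near 0.

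The Ifi200 family on chromosome 1 (173468485 to 174031810 on GRCm38) encodes proteins that bind DNA through HIN domains, among them sensors of cytosolic DNA. All 12 genes were tested, all 12 had a negative log2 fold change and 8 were called lower, with a median of -1.33. Without WT replicate 2, 2 were called and the median was -0.78. KO replicate 3 was nearer to the WT lesions than the other KO lesions were, with a class median of 0.04 against -0.78 and -1.03.

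Ifi203, of which the promoter stretch is shown above, was at 65.5, 97.9 and 72.8 CPM in the WT lesions and 26.1, 28.3 and 47.8 CPM in the KO lesions. The groups did not overlap and the log2 fold change of -1.21 (SE 0.29) was -1.02 without WT replicate 2. Ifi213 had 7.32, 17.5 and 7.99 CPM in the WT lesions and 4.23, 3.099 and 4.04 CPM in the KO lesions. No KO lesion reached a WT lesion, at a log2 fold change of -1.53 (SE 0.40), or -1.01 without WT replicate 2. Ifi208, with the same promoter stretch, stood at 4.53, 11.6 and 5.62 CPM in the WT lesions and 3.09, 1.75 and 3.50 CPM in the KO lesions. Here too no KO lesion reached a WT lesion, with a log2 fold change of -1.38 (SE 0.46), or -0.87 without WT replicate 2. Ifi206 was at 9.93, 26.2 and 10.7 CPM in the WT lesions and 5.58, 4.95 and 6.54 CPM in the KO lesions. Again all WT lesions were above, at -1.45 (SE 0.42), or -0.85 without WT replicate 2.

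Ifi204, the counterpart of a human DNA sensor and the family member with the highest RPKM in WT, had 70.2, 189 and 66.5 CPM in the WT lesions and 34.8, 29.4 and 65.0 CPM in the KO lesions. KO replicate 3 was just below WT replicate 3, and the log2 fold change of -1.33 (SE 0.52) was -0.66 without WT replicate 2. Ifi209 was at 19.4, 70.6 and 26.1 CPM in the WT lesions and 12.2, 8.72 and 20.0 CPM in the KO lesions. WT replicate 1 lay below KO replicate 3, and -1.50 (SE 0.58) became -0.73 without WT replicate 2. Ifi211 stood at 27.9, 52.9 and 34.8 CPM in the WT lesions and 14.9, 13.4 and 27.6 CPM in the KO lesions. WT replicate 1 and KO replicate 3 nearly touched, with a log2 fold change of -1.05 (SE 0.37), and 63.6% of its 75-base windows occur in other genes of the family. The pseudogene Ifi203-ps was at 1.58, 2.03 and 1.24 CPM in the WT lesions and 0.579, 0.695 and 1.13 CPM in the KO lesions. It was called at -1.01 (SE 0.38), and the call was lost without WT replicate 2. Ifi207 and Ifi205 were not called: Ifi207 had 44.7, 104 and 49.4 CPM in the WT lesions and 23.6, 17.5 and 46.5 CPM in the KO lesions. KO replicate 3 was above WT replicate 1 for it, and its log2 fold change was -1.17 (SE 0.49). That value was -0.69 without WT replicate 2 and -1.68 without KO replicate 3, where Ifi207 was called lower. Ifi205 was at 39.0, 117 and 49.3 CPM in the WT lesions and 16.9, 23.2 and 66.5 CPM in the KO lesions. Its KO replicate 3 exceeded WT replicates 1 and 3, and the log2 fold change was -0.94 (SE 0.66). That value was -0.31 without WT replicate 2 and -1.77 without KO replicate 3, where Ifi205 was called lower. The other uncalled genes were Ifi202b and Ifi214, with at most 5.85 CPM in any library.

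The Ifitm family departed from the GTPases, the type I-induced members and the Ifi200 family. Several of the small Ifitm membrane proteins stop enveloped viruses from fusing in endosomes. Ifitm1, Ifitm2 and Ifitm3 are also made in many tissues without infection. By edgeR none of the 5 tested genes was called lower or higher or had an unadjusted p under 0.05 (DESeq2 called Ifitm10 lower), all 5 were highest in WT replicate 2, and the median log2 fold change was -0.06, or 0.44 without that library.

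Ifitm3 had the highest RPKM of all 71 members, 663 ± 164 in WT and 638 ± 108 in KO (SD, n = 3), and stood at 394, 577 and 378 CPM in the WT lesions and 476, 474 and 348 CPM in the KO lesions. The groups overlapped throughout, with a log2 fold change of -0.06 (SE 0.24) that turned positive under upper quartile scaling and without WT replicate 2 (0.17). Ifitm2 had 88.1, 188 and 85.2 CPM in the WT lesions and 133, 134 and 86.2 CPM in the KO lesions. KO replicates 1 and 2 lay between WT replicate 2 and the other WT lesions, and the log2 fold change of -0.03 (SE 0.37) likewise turned positive under upper quartile scaling and was 0.44 without WT replicate 2. Ifitm1 was at 42.7, 295 and 49.0 CPM in the WT lesions and 165, 206 and 50.4 CPM in the KO lesions. KO replicates 1 and 2 were far above WT replicates 1 and 3, while KO replicate 3 was at their level and WT replicate 2 above all others. Its log2 fold change was 0.12 (SE 0.90), and 1.62 without WT replicate 2, where Ifitm1 was the only member called higher. Leaving out any 1 of WT replicates 1 and 3 and KO replicates 1 and 2 made it negative, at -0.30 to -0.02. KO replicates 1 and 2 also had the highest sums of the 10 epithelial markers, 37104 and 28624 CPM, most of it lactoferrin, against 11568 to 20955 CPM in the other libraries, and the part of epithelium in the Ifitm values was not tested.

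Ifitm6 stood at 6.02, 42.8 and 2.65 CPM in the WT lesions and 6.67, 7.87 and 4.08 CPM in the KO lesions. WT replicate 2 was 9.87-fold above the mean of the other WT lesions, and the log2 fold change of -1.47 (SE 1.01) was 0.52 without it. Ifitm10 was at 1.24, 2.09 and 0.384 CPM in the WT lesions and 0.351, 0.516 and 0.563 CPM in the KO lesions. The groups overlapped and its log2 fold change was -1.37 (SE 0.64). Ifitm5 had 20 counts in WT replicate 2 and at most 3 elsewhere, and Ifitm7 had 2 counts in WT replicate 2 and 0 elsewhere, where a count of 0 allows up to 0.0526 to 0.0675 CPM (3 counts, counting error only).

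Ifi30, Rsad1 and Isg20l2 lie outside the families above. Ifi30 is a lysosomal thiol reductase of antigen-presenting cells. It was at 71.1, 134 and 56.3 CPM in the WT lesions and 50.6, 39.5 and 66.0 CPM in the KO lesions. The groups overlapped, with a log2 fold change of -0.75 (SE 0.37). Rsad1, a mitochondrial protein, had 8.63, 6.53 and 6.04 CPM in the WT lesions and 9.19, 9.77 and 8.46 CPM in the KO lesions. WT replicate 1 lay within the KO range, and the log2 fold change was 0.37 (SE 0.20). Isg20l2, an exonuclease of ribosome assembly, stood at 29.0, 29.1 and 33.1 CPM in the WT lesions and 37.1, 36.4 and 31.7 CPM in the KO lesions. It overlapped between the groups at 0.21 (SE 0.13).

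**Figure D5:**
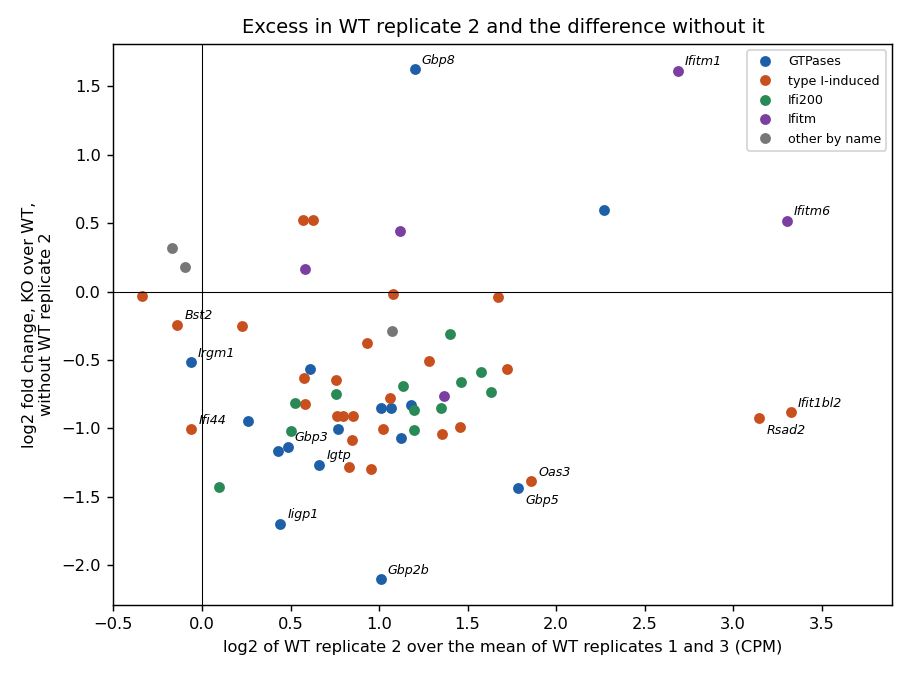
For each of the 63 tested members, the log2 ratio of WT replicate 2 to the mean of WT replicates 1 and 3 (horizontal axis) against the log2 fold change, KO over WT, fitted without WT replicate 2 (vertical axis), coloured by class. Both axes use WT replicates 1 and 3. Most points lie at the lower right, Rsad2, Ifit1bl2 and Ifitm6 lie farthest right, and Iigp1, Gbp3 and Igtp show a large difference with little excess in WT replicate 2.

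Members differed in how much of the WT level came from WT replicate 2. Its excess over the mean of the other WT lesions was 10.02-fold for Ifit1bl2, 9.87-fold for Ifitm6, 8.86-fold for Rsad2 and 6.44-fold for Ifitm1, and 0.957-fold for Irgm1, 0.958-fold for Ifi44 and 0.907-fold for Bst2. Over the class medians, the excess was 0.89 on the log2 scale for the GTPases, 0.87 for the type I-induced members, 1.19 for the Ifi200 family and 1.53 for the Ifitm family. WT replicates 1 and 3 exceeded the KO mean by 1.06, 0.85 and 0.82 on the log2 scale in the first 3 of these classes, whereas for the Ifitm family the difference was -0.41.

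The pathway upstream was then examined for the genes that make and relay interferon. Of 21 interferon genes, 17 had 0 counts in all libraries, among them Ifnb1, and the transcript of interferon gamma, Ifng, was at 0.171, 0.225 and 0.0641 CPM in the WT lesions and 0.0702, 0.0795 and 0.0834 CPM in the KO lesions. These are a few reads per library, too few to test. The single interferon gene with enough reads was Ifne, the interferon that reproductive epithelium makes without infection, at 8.52, 7.18 and 9.61 CPM in the WT lesions and 10.4, 10.4 and 4.79 CPM in the KO lesions. The groups overlapped, and the log2 fold change was 0.02 (SE 0.34).

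None of 6 receptor genes was called by edgeR, and none had an unadjusted p under 0.05. Ifnar1 was at 68.0, 149.6 and 72.8 CPM in the WT lesions and 67.7, 61.9 and 75.3 CPM in the KO lesions, and Ifngr1 at 121, 197 and 170.5 CPM in the WT lesions and 148, 127 and 159 CPM in the KO lesions. Their log2 fold changes were -0.50 (SE 0.33) and -0.17 (SE 0.21), and the groups overlapped for both. The partner chains had log2 fold changes of -1.08 (SE 0.58) for Ifnar2 and -0.28 (SE 0.17) for Ifngr2. Without WT replicate 2 the values were -0.04 for Ifnar1, -0.007 for Ifngr1, -0.25 for Ifnar2 and -0.28 for Ifngr2.

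Among 5 signal transducers, Stat2 was called lower. It stood at 60.5, 114 and 58.8 CPM in the WT lesions and 38.2, 35.0 and 42.7 CPM in the KO lesions. The groups were separate, and the log2 fold change was -1.01 (SE 0.29), or -0.62 without WT replicate 2. Irf9, the DNA-binding partner of Stat2, had 62.1, 83.9 and 58.9 CPM in the WT lesions and 50.2, 51.0 and 47.1 CPM in the KO lesions. All KO lesions lay below all WT lesions, at a log2 fold change of -0.47 (SE 0.17), short of the fold threshold. The kinases Jak1, Jak2 and Tyk2 overlapped between groups, at -0.29, 0.56 and -0.38.

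Of 9 interferon regulatory factors and related activators, 3 were called lower. Irf7, the amplifier of type I interferon, was at 124, 213 and 89.8 CPM in the WT lesions and 51.2, 40.4 and 50.6 CPM in the KO lesions. No KO lesion reached WT, at a log2 fold change of -1.59 (SE 0.33), or -1.17 without WT replicate 2. Nlrc5 and Ciita, the activators of MHC class I and class II genes, had log2 fold changes of -1.66 (SE 0.57) and -1.28 (SE 0.50), which were -0.90 and -0.81, no longer called, without WT replicate 2. Irf1, an activator of many GTPase genes, was at 73.4, 147 and 76.0 CPM in the WT lesions and 52.2, 39.5 and 59.2 CPM in the KO lesions. Its groups were separate, but the log2 fold change of -0.97 (SE 0.32) stayed short of the threshold and was -0.57 without WT replicate 2. Irf8 overlapped between groups at -0.74 (SE 0.37), or -0.31 without WT replicate 2.

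Of 24 interferon-induced genes that the names had not selected, 22 were tested and 11 were called lower (5.85% of all genes). All 22 had a negative log2 fold change (48.6% of all genes), with a median of -1.02. Without WT replicate 2 the median was -0.55 and 6 were called lower (5.86% of all genes in that fit). The T-cell-specific GTPases Tgtp1 and Tgtp2 and the predicted GTPase gene Gm12250 belong to the same family as the immunity-related GTPases described above. Tgtp2 was at 27.8, 33.6 and 26.3 CPM in the WT lesions and 6.47, 6.18 and 10.5 CPM in the KO lesions. The lowest WT lesion was well above the highest KO lesion, with a log2 fold change of -1.92 (SE 0.26). Tgtp1 and Gm12250 had log2 fold changes of -2.14 (SE 0.37) and -1.92 (SE 0.46), and every WT lesion was above every KO lesion for both. Among 9 sensors of nucleic acid found in the table none was called by edgeR or DESeq2, though 3 had an unadjusted edgeR p under 0.05, and of 5 feedback inhibitors Usp18 and Socs3 were called lower, while Socs1 had a log2 fold change of -0.18 (SE 0.27). Socs3 was at 75.05, 383 and 48.4 CPM in the WT lesions and 27.3, 20.9 and 44.5 CPM in the KO lesions. WT replicate 2 stood far above the other WT lesions, and the log2 fold change of -2.45 (SE 0.85) was -0.997 without it, where 0 of the feedback inhibitors were called.

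Some markers of leukocytes were also called lower, and the part of these cells in the values of the members was not tested. Of 13 tested T and NK cell markers 8 were called lower, 3 without WT replicate 2, and the summed level of the 14 listed was 34.2 to 97.9 CPM in WT and 8.42 to 25.9 CPM in KO. Of 8 B-cell markers 6 were called lower, 3 without WT replicate 2, at sums of 11.3 to 91.8 CPM and 7.95 to 10.7 CPM. Of 10 macrophage markers none was called by edgeR or had an unadjusted p under 0.05, and 1 was called lower by DESeq2, with sums of 2228 to 6320 CPM in WT and 1492 to 3256 CPM in KO, where KO replicate 3 exceeded WT replicates 1 and 3. Of the 8 tested neutrophil markers other than lactoferrin edgeR called 4 lower, and DESeq2 called 1 marker of this list lower. Without WT replicate 2 edgeR called 0. The sums over all libraries were 215 to 9877 CPM in WT and 37.3 to 185 CPM in KO. Of 6 plasma cell markers 2 were called lower, 0 without WT replicate 2, and their sums of 403 to 1037 CPM in WT and 473 to 565 CPM in KO overlapped. Of 6 plasmacytoid dendritic cell markers Ccr9 and Cox6a2 were called lower, with and without WT replicate 2, at sums of 247 to 430 CPM in WT and 136 to 246 CPM in KO. Cox6a2, also a subunit of cytochrome oxidase in skeletal muscle, was at 128, 0.720 and 93.3 CPM in the WT lesions and 0.211, 0.159 and 0.292 CPM in the KO lesions, so that it was high in the libraries with muscle RNA. Siglech, the marker most particular to these cells, had a log2 fold change of -0.67 (SE 0.57), or -0.05 without WT replicate 2. Of 7 endothelial markers none was called by edgeR (0 at an unadjusted p under 0.05) or by DESeq2. No list had all of its markers at 0. KO replicate 3 had the highest sums of T and NK cell and macrophage markers among the KO lesions. It also had the highest KO medians of the type I-induced members and the Ifi200 family. Its GTPase median of -0.48 was close to the -0.51 of KO replicate 2. For the guanylate-binding proteins alone KO replicate 2 was higher, at -0.25 against -0.51 in KO replicate 3. A link between these levels and the markers was not tested.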

How the data were processed

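RNA from 3 WT and 3 KO lesions was sequenced as TruSeq Stranded mRNA libraries, 1 per lesion, from 3 donors per genotype. Nothing in the labels pairs lesions, and p-values measure only the spread between these samples. The authors trimmed the reads, mapped them and counted reads per gene on the Galaxy platform, and deposited whole-number, unnormalised counts of 56884 genes per library. The submitters' processing notes name Trimmomatic, featureCounts and DESeq2 without their roles and give GRCm39, whereas the methods of the study give GRCm38. The aligner, the annotation release, the strand setting and the treatment of reads that map to several genes are not given in the sources used here. The labels describe injection of uterine fragments into the peritoneum and the methods describe suturing of a fragment to the mesentery.

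Symbols, exon lengths and coordinates were taken from GENCODE M21 (GRCm38), in which 51948 gene identifiers were found, so they can differ from the models that were counted. Identifiers without a symbol held 3.04% to 3.56% of the counts. The analysis used edgeR 4.0.16 (R 4.3.3): filterByExpr kept 18177 genes, libraries were scaled by TMM, a quasi-likelihood model with genotype as its only term was fitted to all genes, and p-values were adjusted over all of them by the Benjamini-Hochberg method. The SE was obtained from each log2 fold change and the square root of its F statistic. The common biological coefficient of variation was 44.2%. CPM used the TMM factors and RPKM also the exon length, and log2 CPM for class medians used a prior count of 2. The test was checked on simulated counts with 200 changed genes. Intervals and limits for a count of 0 cover counting error only. Alternatives were scaling by DESeq2 size factors or upper quartile, no filter beyond 1 count, at least 10 counts in every library, the Wald test of DESeq2 1.42.0, voom with quality weights in limma 3.58.1, the replicate number as a block, and each library left out in turn. Windows of 75 bases, a length chosen here, were compared between transcripts of GENCODE M21 to find genes that can share reads.

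The members and lists were chosen with earlier results of these data known. A gene of the signal transducer list is not reported here. Members were given with all libraries when they had at least 10 CPM on average, passed the threshold or were among the 3 lowest p-values of their class, which named 55, and Gbp8, Ifne, Socs3, Ccr9, Cox6a2, Siglech and the members too low for this rule were named after their values were seen.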

Additional observations from a re-analysis of the deposited data

How the results depend on the processing

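The direction of 66 of 75 named genes was kept under every alternative that gave a value, and 26 of 973 refitted values changed sign, in 9 genes that were not called with all libraries. The count of members called lower ranged from 16 (without WT replicate 2) to 36 over the fits that left out 1 library, with 22 without KO replicate 1. It was 28 with upper quartile scaling, which moved the median of all genes from 0.01 to 0.11. The count called higher was 0 to 1 over the same fits, and 1 with voom quality weights. DESeq2 gave 28 members an adjusted p under 0.05. The difference of the class medians ranged from -0.49 (without KO replicate 2) to 0.0496. The labels do not say whether replicate numbers pair the lesions. Deviations from the group means correlated at 0.03, -0.15 and -0.20 over genes between lesions of equal number. These values cannot decide it, because tissue differences such as muscle RNA also enter the deviations. With the replicate block 28 members were called lower, 25 of them also without the block, and the lowest edgeR adjusted p was 0.630. The cause of these shifts was not tested.

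Log2 fold changes that changed sign were those of Gbp8 (-0.37 with the replicate block, -0.0589 with voom, -1.80 to 1.64 without 1 library), Ifitm2 (0.0648 with upper quartile scaling, 0.0404 with the replicate block, 0.48 with voom, -0.26 to 0.44 without 1 library), Ifitm3 (0.0406 with upper quartile scaling, 0.21 with voom, -0.19 to 0.17 without 1 library), Ifitm6 (0.57 with voom, -2.00 to 0.52 without 1 library), Ifne (-0.000929 with DESeq2 size factors, -0.0510 with the replicate block, -0.15 to 0.30 without 1 library), and, without 1 library only, Ifitm1 (-0.30 to 1.62), Ifi27 (-0.0516 to 0.52), Jak1 (-0.49 to 0.0112) and Socs1 (-0.30 to 0.0139). The 8 members with too few reads at this depth have no test, and groups of 3 were not screened for outlying samples.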
